A study of Mus musculus with 6 samples.

Results

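The complement system is a set of plasma and cell-surface proteins that tag particles for uptake, attract leukocytes and open membranes. Its classical pathway starts when C1q, a hexamer of triple chains encoded by *C1qa*, *C1qb* and *C1qc*, binds antibody or dying cells. Its alternative pathway is driven by factor B (*Cfb*), the protease subunit of the convertases, and is held together by properdin (*Cfp*), and the split products C3a and C5a act through the receptors encoded by *C3ar1* and *C5ar1*. Macrophages and dendritic cells make much of the C1q and properdin of tissues, whereas most other components come mainly from liver. Complement components and receptors were followed here by gene symbol, for a list of 8 genes. Of these, 6 had a named probe, 1 each, and all 6 probes were tested, among 16071 probes and 8921 named genes. *C3* and *C3ar1* were not analysed here.

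The cells were bone marrow-derived dendritic cells (BMDCs) of 3 male C57BL/6 mice, grown for 10 days in 20 ng/ml GM-CSF. Day 10 cells were kept for another 6 h in 5 ng/ml GM-CSF, either with 20 ng/ml recombinant IL-4 (3 arrays) or without it (control, 3 arrays). RNA was hybridized to Illumina MouseWG-6 arrays. A GM-CSF culture is a mixed population, and no sorting before RNA extraction is described for these arrays, so fewer cells of a type and less RNA per cell cannot be told apart. Levels below are log2 bead signals after background correction and quantile normalization, differences are IL-4 minus control on that scale, and a call is an adjusted p under 0.05 from limma. Arrays that carry 1 replicate number departed from their group means in the same direction and were treated as a pair, so a fit with that number as a replicate block is given beside the unpaired fit.

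Between 14934 and 17185 probes were detected per array, and the median raw signal ran from 83.8 to 121. The treatment was visible in *Ccl24*, the eosinophil chemokine, which was at 9.75 to 10.91 with IL-4 and at 4.68 to 5.21 in control, and in *Retnla*, the gene of RELMα, at 12.38 to 12.42 and 10.42 to 10.86. The antigen presentation gene *Cd74* lay between 13.96 and 14.12 on all arrays, the dendritic cell factor *Zbtb46* between 6.17 and 6.50 and *Itgax* (CD11c) between 6.33 and 7.33. Of the 9 tested dendritic cell markers, limma called 2 in the blocked fit, where 2.66% of all genes were called. Both were higher with IL-4, the transcription factor genes *Irf4* (1.08, adjusted p = 0.0101 from limma) and *Batf3* (0.91, adjusted p = 0.0104). None was called without the block, where 0.123% of all genes were. There 4 had an unadjusted p under 0.05 (8.38% of all genes did), *Irf4*, *Batf3* and *Irf8* (0.49) higher and *Dpp4* (-0.55) lower. Both arrays of replicate 2 stood apart from the others in neutrophil and mast cell genes. The neutrophil granule gene *Ngp* was at 11.64 (IL-4) and 11.67 (control) in replicate 2, against 7.96 to 9.26 on the other 4 arrays. The mast cell gene *Cpa3* was at 11.65 (IL-4) and 11.78 (control) there, against 6.20 to 8.76 elsewhere. Calls below that changed when replicate 2 was left out are given both ways.

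None of the 6 measured complement genes was called after 6 h of IL-4, and the C1q chains and factor B lay on the low side. Limma called 0 of 6 without the block (0 at an unadjusted p under 0.05) and 0 of 6 with it (2 at an unadjusted p under 0.05, *C1qa* and *Cfb*). Of all 8921 genes, 8.38% had an unadjusted p under 0.05 without the block and 15.1% with it. Over all tested probes, 0.112% were called without the block, all higher, and 2.27% with it (1.44% higher and 0.834% lower). *C1qa*, *C1qb*, *C1qc* and *Cfb* were lower with IL-4 in all 3 same-number pairs, that is 4 of 6 genes, and 17.4% of all tested probes were lower in all 3 pairs. No measured member had IL-4 arrays that lay wholly above or below the control arrays, where 6.09% of probes lay wholly above and 6% wholly below. The median difference over the 6 genes was -0.23, against -0.015 over all 8921 genes.

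**Figure D1:**
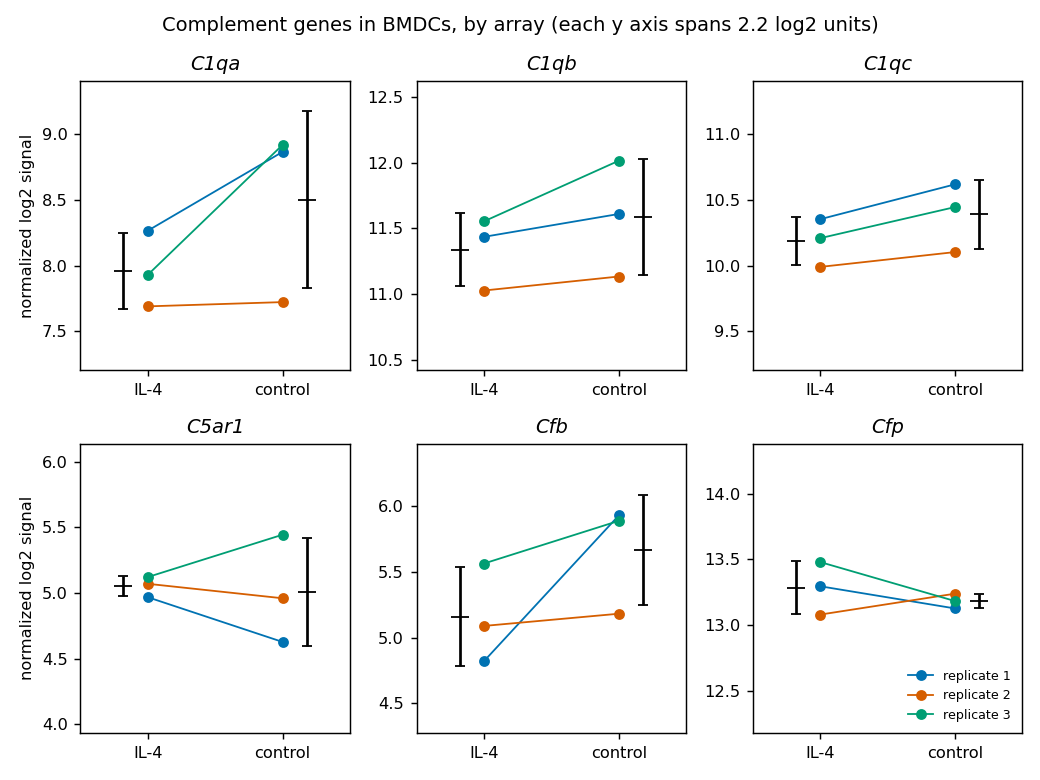
Normalized log2 signal (y axis) of the 6 measured complement genes on the 3 IL-4 and the 3 control arrays, with points joined by replicate number and the group mean ± SD in black beside them. The C1q chains slope up towards control in every pair, with replicate 2 (orange) lowest and nearly flat for *C1qa*, where it was at 7.69 with IL-4 and at 7.72 in control.

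The C1q genes sit side by side on chromosome 4 in the order *C1qb*, *C1qc*, *C1qa* in the RefSeq gene table. *C1qa*, which encodes the A chain, was at 8.26, 7.69 and 7.93 in replicates 1, 2 and 3 with IL-4, against 8.86, 7.72 and 8.92 in control. Replicates 1 and 3 were lower with IL-4 while replicate 2 was low in both groups, and the groups overlapped through its control array. The means were 7.96 ± 0.29 with IL-4 and 8.50 ± 0.68 in control (SD, n = 3 each), a difference of -0.54 (standard error 0.32, 95% interval -1.25 to 0.17, adjusted p = 0.832 from limma). With the replicate block the standard error was 0.19 and the interval -0.95 to -0.13, and the adjusted p = 0.207 again missed the threshold. Without both arrays of replicate 2, the blocked fit gave -0.79 and called the gene (adjusted p = 0.0240 from limma), so this call turns on replicate 2. It did not call the gene without replicate 1 (-0.51, adjusted p = 0.325) or without replicate 3 (-0.32, adjusted p = 0.883). Leaving out replicate 2 was chosen after the data were seen, and there the blocked fit called 842 of all probes, against 365 with all arrays. In the authors' normalized values the difference was -0.50.

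*C1qb*, the B chain gene, was at 11.43, 11.03 and 11.55 with IL-4, against 11.61, 11.13 and 12.01 in control. The pairs differed by -0.17, -0.11 and -0.46, smaller than the distance between replicates 2 and 3 within either group. The overall difference was -0.25 (standard error 0.25, 95% interval -0.80 to 0.31, adjusted p = 0.945, and 0.558 with the block). *C1qc*, the C chain gene, was at 10.35, 9.99 and 10.21 with IL-4, against 10.62, 10.10 and 10.45 in control. All 3 chain genes were lower with IL-4 in each pair and had their lowest values in replicate 2. For *C1qc* the difference was -0.20 (95% interval -0.63 to 0.22, adjusted p = 0.935, and 0.635 with the block). Both 95% intervals include 0.

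Because these neighbouring genes lay on the same side, the upstream sequences of *C1qb* and *C1qc* are shown. For *C1qa* and *Cfb* no entry was at hand, so neither was searched. The sequences were read from RefSeq (build GRCm38.p6) as the 250 bases before the start, 5′ to 3′ on the gene's strand. Capitals mark the core of the site for PU.1, a factor that myeloid cells use to switch on their genes, searched as GGAAGT on both strands.
C1qb, chr4:136886201-136886450, minus strand: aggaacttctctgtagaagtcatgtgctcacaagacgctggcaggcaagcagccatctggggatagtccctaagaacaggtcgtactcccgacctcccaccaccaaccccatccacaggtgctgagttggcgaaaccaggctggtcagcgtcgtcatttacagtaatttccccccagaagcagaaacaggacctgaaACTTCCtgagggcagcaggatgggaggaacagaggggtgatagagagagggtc
C1qc, chr4:136892915-136893164, minus strand: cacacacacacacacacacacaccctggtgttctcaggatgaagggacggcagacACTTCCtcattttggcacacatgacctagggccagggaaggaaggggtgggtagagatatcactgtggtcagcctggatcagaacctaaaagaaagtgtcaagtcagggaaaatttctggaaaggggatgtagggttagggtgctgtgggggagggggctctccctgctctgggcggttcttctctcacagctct
The core was found on the opposite strand, 53 to 48 bases before the start of *C1qb* and 195 to 190 bases before that of *C1qc*. It was also found at 2 places before *C5ar1* and at none before *Cfp*, so in 3 of the 4 measured members with an entry. Of all 32851 upstream windows, 19.7% held it. The palindrome of the STAT family, TTCNNNGAA, and the same flanks 4 bases apart, the form that the IL-4 factor STAT6 favours, were found in none of these 4 windows and in 7.02% and 5.85% of all windows. The interferon response element (GAAA, 2 free bases, GAAA) and the NF-kB site (GGGA, 2 free bases, TTCC), also searched on both strands, were absent from the 4 windows too and present in 2.98% and 1.21% of all. A match of letters is no measurement of binding.

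Of the alternative pathway genes, *Cfb* was nearer the detection limit. It was at 4.82, 5.09 and 5.56 with IL-4, against 5.93, 5.18 and 5.89 in control. The largest gap was in replicate 1, the pair differences being -1.11, -0.09 and -0.32. The mean difference was -0.51 (standard error 0.26, 95% interval -1.09 to 0.08, adjusted p = 0.771, and 0.259 with the block). It was -0.17 without background correction and -0.16 in the authors' table, and the lowest detected value of each array lay between 4.63 and 4.79. *Cfp*, the properdin gene, was bright and nearly level. It was at 13.29, 13.08 and 13.48 with IL-4, against 13.13, 13.24 and 13.18 in control. The difference was 0.10 (95% interval -0.27 to 0.48, adjusted p = 0.974, and 0.850 with the block), and its sign was not shared by the pairs (0.17, -0.16 and 0.30).

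*C5ar1*, the receptor for the anaphylatoxin C5a, was close to background. It was at 4.97, 5.07 and 5.12 with IL-4, against 4.63, 4.96 and 5.44 in control, and was detected on 3 IL-4 arrays and 2 control arrays. The IL-4 arrays lay inside the span of the control arrays. The difference of 0.043 (95% interval -0.44 to 0.53, adjusted p = 0.992, and 0.951 with the block) changed sign with the scaling, being -0.15 after median scaling and -0.013 in the authors' values, so no direction can be given.

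The rest of the complement system was read from a list of 62 symbols that holds the members. Of these, 26 had a named probe and 23 were tested (*C4bp*, *Cd59b* and *Colec11* were too dim). Limma called 0 of 23 without the block (3 at an unadjusted p under 0.05) and 1 with it, lower (7 at an unadjusted p under 0.05), beside the shares of 8.38% and 15.1% of all genes at that unadjusted p. Over all genes 0.123% were called without the block, all higher, and 2.66% with it, 1.65% higher and 1.01% lower. There were 15 genes below 0 and 8 above, with a median of -0.15, where 4708 of all 8921 genes were below 0 and 4213 above. Skipping background correction brought this median to -0.043, and the authors' values gave -0.044. In all 3 pairs 8 genes were lower with IL-4, 4 of them the members given above, where 17.4% of all tested probes were lower. The 2 genes higher in all 3 pairs were *Calr* and *C1qbp*, where 16.3% of all tested probes were higher.

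The 1 call was *Cd93*, a membrane glycoprotein of myeloid and endothelial cells that was first described as a C1q receptor for phagocytosis. Its brighter probe was at 6.51, 7.18 and 6.51 with IL-4, against 7.33, 7.75 and 7.58 in control. All IL-4 arrays lay below all control arrays, as they did for 6% of all tested probes. The means were 6.73 ± 0.39 with IL-4 and 7.55 ± 0.21 in control (SD, n = 3 each), a level 0.566 times that of control. In the blocked fit *Cd93* fell by 0.82 (limma, adjusted p = 0.0177, standard error 0.16), but the unpaired fit did not call it (standard error 0.22, adjusted p = 0.335). Its other probe was at 6.42, 7.15 and 6.62 with IL-4, against 7.70, 7.60 and 7.09 in control. There the groups overlapped, and the difference of -0.73 did not pass (adjusted p = 0.0698 with the block, and 0.482 without). The blocked fit without replicate 3 lost the call of the brighter probe (-0.70, adjusted p = 0.172). It called the other probe without replicate 2 (-0.88, adjusted p = 0.0287) and without replicate 3 (-0.86, adjusted p = 0.0385), and not without replicate 1 (-0.46, adjusted p = 0.450). The authors' values gave -0.59 for the brighter probe. With the block limma called 0 of all probes there, so that lack of a call is not particular to *Cd93*. With an intensity trend added, the blocked fit of those values called 220 probes, without this one (adjusted p = 0.0660 from limma).

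Genes of intracellular proteins that can bind C1q lay higher with IL-4, without passing the test. *Calr* encodes calreticulin, a chaperone of the endoplasmic reticulum that also binds the C1q stalk. It was at 9.60, 8.92 and 9.42 with IL-4, against 8.79, 8.74 and 8.59 in control. *C1qbp*, whose mitochondrial product binds the C1q heads, was at 9.41, 9.07 and 9.15 with IL-4, against 8.49, 8.63 and 8.80 in control. For both, every IL-4 array lay above every control array, as for 6.09% of all tested probes. Groups without overlap, in either direction, were seen for 3 of the 23 tested complement genes and for 1193 of all 8921 genes, a similar share. The differences were 0.61 for *Calr* (95% interval 0.15 to 1.07, adjusted p = 0.495, and 0.114 with the block) and 0.57 for *C1qbp* (0.18 to 0.96, adjusted p = 0.427, and 0.125 with the block). The intervals are those of single probes and the adjusted p-values did not pass. Without replicate 2, the blocked fit called *Calr* (0.83, adjusted p = 0.0152 from limma) but not *C1qbp*. It called neither without replicate 1 or without replicate 3, where *Calr* had 0.51 (adjusted p = 0.325) and 0.49 (adjusted p = 0.589).

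**Figure D2:**
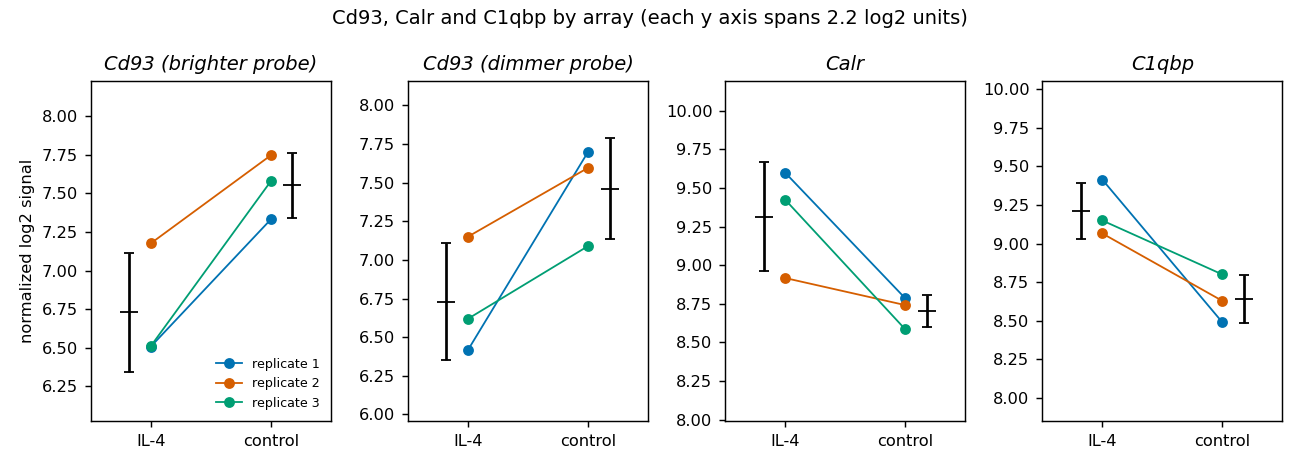
Normalized log2 signal (y axis) of both *Cd93* probes, *Calr* and *C1qbp* on the IL-4 and control arrays, joined by replicate number, with the group mean ± SD in black. *Cd93* was lower with IL-4 in every pair by both probes, and *Calr* and *C1qbp* were higher in every pair, least so for *Calr* in replicate 2.

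The chains of complement receptors 3 and 4, integrins that bind fragments of C3, gave no call either. *Itgam*, the CD11b chain, was at 6.74, 7.29 and 6.28 with IL-4, against 7.40, 7.17 and 7.33 in control. Replicate 2 went against replicates 1 and 3. The difference was -0.53 (adjusted p = 0.719, and 0.267 with the block), and the blocked fit without replicate 2 called it (-0.85, adjusted p = 0.0169 from limma). That fit did not call *Itgam* without replicate 1 (-0.46, adjusted p = 0.464) or without replicate 3 (-0.27, adjusted p = 0.938). *Itgax*, the CD11c chain, had a difference of 0.063 (0.16 by its other probe) and *Itgb2*, their shared partner, 0.040, and both signs turned when single arrays were left out.

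In the classical and lectin list all 6 tested genes lay below 0, where 4708 of all 8921 genes did. They were the C1q chain genes, *C4a*, *Fcna* and *Fcnb*, a ficolin of myeloid cells (-0.29, adjusted p = 0.894, and -0.16 by its other probe). *C4a*, *Fcna* and *Fcnb* lay near background, and their differences were only -0.013, -0.012 and -0.056 in the authors' values. The *C4a* probe cannot be assumed to tell this gene from the near-identical *C4b*. In the terminal list *C8g* had -0.19 and *C8b* -0.089 (adjusted p = 0.921 and 0.975). Among regulators the C3 convertase inhibitor *Cr1l* (Crry) had -0.19 (-0.12 by its other tested probe), the membrane attack inhibitor *Cd59a* -0.16 and the anaphylatoxin-cleaving carboxypeptidase *Cpn1* 0.18 (adjusted p from 0.940 to 0.968), the last with the opposite sign after median scaling (-0.064).

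**Figure D3:**
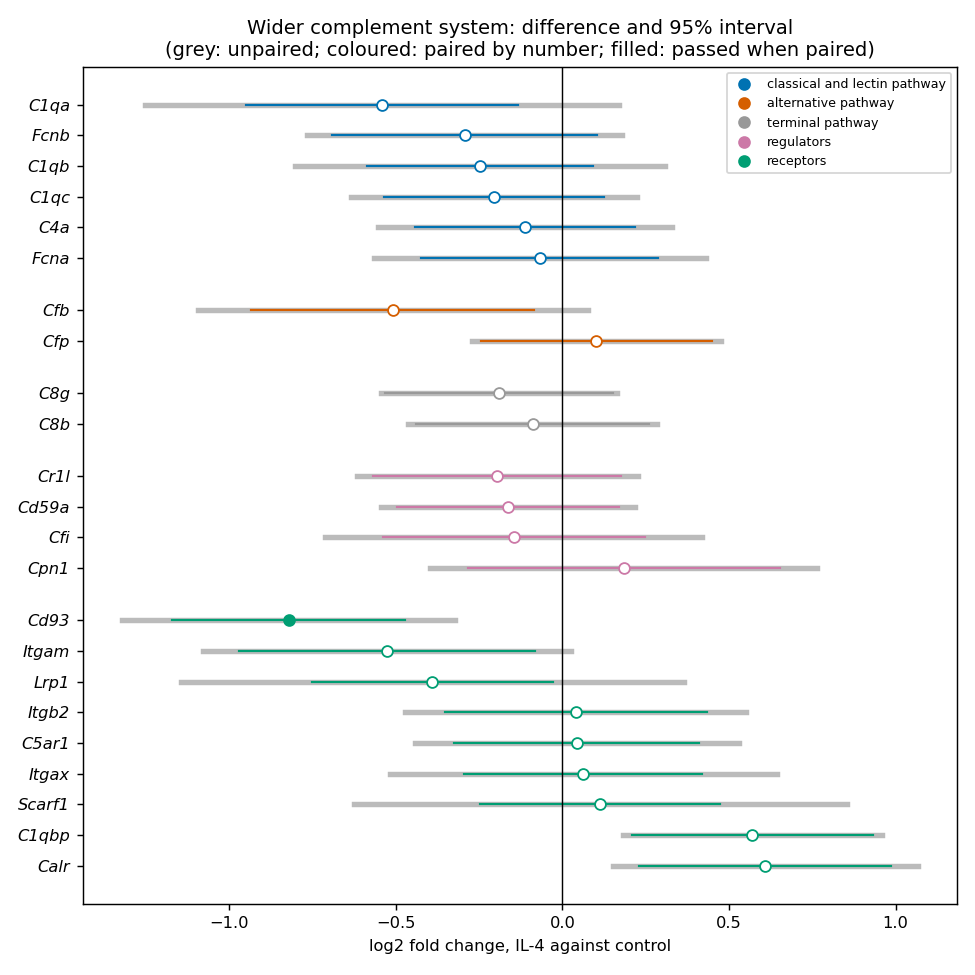
Log2 fold change of IL-4 against control (x axis) for the 23 tested complement genes, 1 probe a gene, coloured by role, with 95% intervals from the unpaired fit (grey) and the fit paired by replicate number (coloured). *Cd93* at -0.82 carries the 1 filled marker, which stands for an adjusted p under 0.05 in the paired fit.

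Differences between replicate numbers were next set against the residual spread, by limma's F test of replicate number in the blocked fit. It rests on the pairing, which was itself read from these arrays. It called 0 of the 6 members, where 5.25% of all probes were called. Some other settings called 1 or 2 members, *C1qb* or both *C1qa* and *C1qb*, without a share over all probes to set beside them. All C1q chains were lowest in replicate 2 in both groups, 3 of 6 members, against 16.5% of all tested probes. The mean over both arrays of replicate 2 was 7.71 for *C1qa*, against 8.56 and 8.42 in replicates 1 and 3 (adjusted p = 0.0777). For *C1qb* it was 11.08, against 11.52 and 11.78 (adjusted p = 0.104), and for *C1qc* 10.05, against 10.49 and 10.33 (adjusted p = 0.324). In the wider list 2 of 23 genes were called, against 5.91% of all genes. *Lrp1*, a scavenger receptor that takes up C1q-coated cargo, was lowest in replicate 2, with a mean of 4.56 against 5.49 and 5.50 (adjusted p = 0.0210). *Scarf1*, a scavenger receptor that binds C1q on dying cells, was highest in replicate 3, with a mean of 5.56 against 4.73 and 4.59 (adjusted p = 0.0242). Both were near background, neither was called after median scaling or in the authors' values, and *Scarf1* was detected on 3 of the 6 arrays.

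Markers of other cells moved with replicate number as well. Of 11 tested macrophage and monocyte genes, 8 were called by the F test and 7 were lowest in replicate 2 in both groups, among them *Apoe* (4.50 with IL-4 and 4.25 in control, against 6.55 to 7.63 on the other arrays) and *Csf1r*. *Adgre1*, a macrophage surface gene, was instead highest in replicate 2. The summed linear signal of this list was 10800 to 21200 with IL-4 and 13300 to 19600 in control, lowest in replicate 2 in both groups. Most of this sum was *Lyz2*, the brightest gene of the list, at 12.91 to 14.09 with IL-4 and 13.26 to 13.88 in control. Of 10 neutrophil genes, 9 were called and 8 were highest in replicate 2 in both groups (15.7% of all tested probes were), with sums of 7270 to 33700 with IL-4 and 8720 to 33200 in control. Of 4 mast cell and basophil genes 3 were called, with sums of 354 to 4110 with IL-4 and 336 to 4510 in control. Of 2 eosinophil genes 2 were called, both highest in replicate 3 in both groups, so replicate 2 was not the only one that differed. Between IL-4 and control the macrophage list had a median difference of -0.079, with *Cd14* lower in the blocked fit and no other call. In that fit 5 of the 11 had an unadjusted p under 0.05 from limma (15.1% of all genes did), in both directions. *Csf1r* (0.46) and *Mertk* (0.52) were higher with IL-4. *Cd14* (-0.93), *Fcgr1* (-0.59) and *Cx3cr1* (-0.54, near background) were lower. The part of these cells in the C1q levels was not tested.

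**Figure D4:**
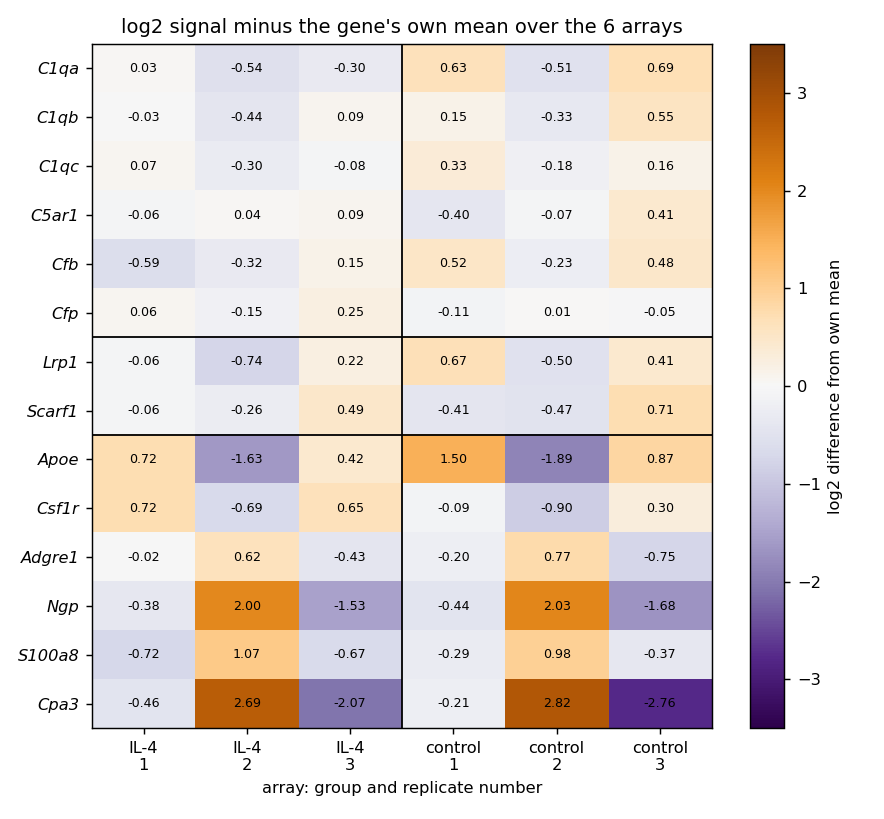
Log2 signal minus each gene's own mean over the 6 arrays (colour and printed value), for the 6 complement members (top), *Lrp1* and *Scarf1* (middle) and markers of macrophages, neutrophils and mast cells (bottom), by group and replicate number (x axis). The C1q rows are negative in both replicate 2 columns, *C1qa* at -0.54 with IL-4 and -0.51 in control, as are *Apoe* and *Csf1r*, while *Ngp*, *S100a8* and *Cpa3* are positive there. The macrophage marker *Adgre1* is positive there as well, at 0.62 with IL-4 and 0.77 in control.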

How the data were processed

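RNA of 3 IL-4 and 3 control BMDC cultures was hybridized to Illumina MouseWG-6 arrays. The deposited scanner table holds a raw bead intensity and a detection p-value for each of 45281 probes. A second deposited table holds log2 values of 19293 probes, for which the authors used lumi (variance-stabilizing transformation, then robust spline) before their own limma tests. Their versions and probe filter: not given in the sources used here.

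lumi was not at hand, so neqc (limma 3.58.1 under R 4.3.3) did the background correction (offset 16) and the quantile step, and the authors' values served as an alternative. Probes detected (p under 0.05) on 3 or more of the 6 arrays were fitted with lmFit and eBayes, two-sided, with Benjamini-Hochberg adjustment over all 16071. Symbols came from the platform annotation (16243 probes with 1 gene). The brightest probe stands for a gene. Named genes are the members, the 3 largest differences of each role, any wider-list gene called for IL-4 and set marker genes. *Irf4*, *Batf3*, *Irf8*, *Dpp4*, *Itgam*, *Itgb2*, *C4a*, *Fcna*, *Cfi*, *Lrp1*, *Scarf1*, *Cd14*, *Mertk*, *Fcgr1*, *Cx3cr1* and *Lyz2* were added after their values were seen. The members and lists were chosen with earlier results of these data known.

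Deviations from the group means correlated at 0.292 to 0.624 between arrays of the same number and at -0.549 to 0.0959 between others, against a minimum of 0.1 for pairing. The labels say that marrow was pooled within each mouse and do not tie numbers to mice. P-values measure only the spread between these arrays. The fits were tested on simulated data. Array number limits the precision. Figures were drawn with matplotlib 3.10.9.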

Additional observations from a re-analysis of the deposited data

How the results depend on the processing

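No member was called under any single alternative to the unpaired fit: offset 50, no background correction, median scaling, other detection filters, an intensity trend, the authors' values or leaving out 1 array. *Cfb* and *C5ar1* did not pass the filter of detection p under 0.01 on all 6 arrays, so they were not tested there. Probes near background (*C5ar1*, *C4a*, *Fcna*, *Fcnb*, *C8b*, *Cfi*, *Cpn1*, *Scarf1*) give little information on levels. The count of probes called over the whole array was 18, with 365 under the replicate block (pairing by number), 6 after median scaling, 1 without the detection filter, 0 in the authors' values (1330 at an unadjusted p under 0.05, limma) and 1 to 67 leaving out 1 array, lowest without IL-4 or control replicate 1 and highest without IL-4 replicate 2. The settings that follow were chosen after seeing the data. Without both replicate 2 arrays the unpaired fit called 64 probes. The blocked fit called 842 without replicate 2 and 348 and 266 without either of the others, 241 with no background correction, and in the authors' values 0 (2154 at an unadjusted p under 0.05), or 220 with an intensity trend.

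The blocked fit called 0 to 1 members leaving out a pair, the 1 being *C1qa* without replicate 2. In the wider list it called 1 gene (also 1 with no background correction), and 0 to 4 leaving out a pair, the 4 being *Cd93*, *Calr*, *C1qa* and *Itgam* without replicate 2. The F test of replicate number called 1 member with offset 50 and 2 with an intensity trend, and in the wider list 2 genes, with 1 at offset 50 and 4 with the trend. It called 0 there in the authors' values, without background correction, after median scaling and without the detection filter. With detection p under 0.01 asked on all 6 arrays it also called 0. *Lrp1* and *Scarf1* do not pass that filter, so this setting cannot test them. The share of all probes called by the F test was taken for the main fit only (5.25%), so these other counts have no share beside them. The cause of these shifts was not tested. Signs turned for *C5ar1* (0.043), to -0.013 in the authors' values with or without the block, -0.15 after median scaling, -0.15 leaving out 1 array (control replicate 1, with a highest value of 0.26 without control replicate 3) and -0.11 in the blocked fit without replicate 1. They turned for *Cpn1* (0.18), to -0.064 after median scaling, -0.075 leaving out IL-4 replicate 2 (with a highest value of 0.44 without IL-4 replicate 3), and -0.082 without both replicate 2 arrays in either fit. *C8b* (-0.089) had 0.035 in the blocked fit without replicate 3. Leaving out 1 array, *Itgax* (0.063) ran over -0.15 to 0.34 and *Itgb2* (0.040) over -0.19 to 0.23. In the blocked fit *Itgax* had -0.051 without replicate 3, and *Itgb2* had -0.21 without both replicate 2 arrays in either fit. For the members, the wider-list genes named by rule and *Itgam*, *Itgax* and *Itgb2*, 366 alternative values kept direction and side of the threshold, 9 passed it anew and 19 turned sign.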

Other observations

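*C1qa* and *Cfb* were the members whose values spanned more than 1 log2 unit over the 6 arrays, and the genes with the most similar profiles were sought among 8915 other genes, by the root mean square difference between profiles centred on their own means. Nearest to *C1qa* was *Ifit2*, an interferon-induced antiviral gene, with a root mean square difference of 0.073. It was at 5.08, 4.42 and 4.64 in replicates 1, 2 and 3 with IL-4, against 5.77, 4.55 and 5.62 in control. These values are near background, and the probe was detected on 2 IL-4 and 2 control arrays. Its difference of -0.60 was only -0.15 in the authors' values, so the likeness depends on the background correction. *Snx18*, a sorting nexin of membrane traffic, came next (0.11), at 8.54, 7.87 and 8.23 with IL-4, against 9.30, 8.19 and 9.37 in control. *Tnfsfm13* followed (0.15). These profiles share with *C1qa* the low replicate 2 in both groups and lower IL-4 values in every pair, which follows from how they were chosen. Nearest to *Cfb* were *Ccdc17* (0.11, detected on 1 IL-4 array and 3 control arrays), *Gpr141*, an orphan receptor (0.12), and *Zfp871* (0.12). These are descriptions over 6 arrays, with no test.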
